A study of Mus musculus with 8 samples.

Results

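The genes described here encode the machinery that builds and empties the storage granules of platelets. They were chosen as a list of 32 mouse symbols covering alpha-granule and dense-granule biogenesis, the transporters that fill granules, and the SNARE proteins and regulators that release them, and 31 of the 32 matched a gene of the count table, which lists 27679 genes. Vamp7 had no matching identifier and was not analysed here. All 31 had enough counts to be tested.

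Megakaryocytes of wild-type C57BL/6 mice were grown from bone marrow cells depleted of lineage-positive cells, for 3 days in either of 2 milieus. The hydrogel group grew in methylcellulose at 2%, a soft gel whose Young modulus the submitters give as 30 to 60 Pa. The liquid group grew in medium without gel. A BSA gradient of 2 to 4% then enriched the large, mature cells of both. Each group had 4 polyA RNA-seq libraries from cultures that the submitters call independent, with no other treatment or allele named. The series asks, by its title, how mechanical confinement bears on platelet release outside its normal place.

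Platelets carry alpha granules, which hold adhesive proteins and chemokines, and dense granules, which hold serotonin, adenine nucleotides, polyphosphate and calcium. Both are lysosome-related organelles built in the megakaryocyte from endosomal membranes: the BEACH protein NBEAL2 and the VPS33B-VIPAS39 pair are needed for alpha granules, while the BLOC complexes, the adaptor complex AP-3, LYST and the Rab GTPases RAB32 and RAB38 are needed for dense granules. At activation, Rab27 and Munc13-4 (Unc13d) bring granules to the plasma membrane, where VAMP proteins on the granule pair with syntaxin 11, SNAP23 and the Sec1-like protein Munc18-2 (Stxbp2). Loss of these genes is known in people and mice as gray platelet, Hermansky-Pudlak, Chediak-Higashi, Griscelli and familial hemophagocytic syndromes.

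Totals ranged from 27012172 to 49281611 counts per library, and 13845 genes were tested. The megakaryocyte label was checked on 16 markers, none of them at 0 over all libraries, which summed to 35037 to 51739 CPM (counts scaled per library size by TMM) in hydrogel and 39700 to 68343 CPM in liquid. Of these 16 markers, 10 fell and 0 rose, where 14.1% of all tested genes fell and 15.1% rose. Of 20 macrophage markers, 16 rose and 0 fell, with sums of 4351 to 9421 CPM in hydrogel and 1175 to 2556 CPM in liquid. Hydrogel 1 and liquid 2 stood apart from their own groups on both lists, with 51739 and 39700 CPM for the megakaryocyte sum, against 35037 to 37869 CPM in the other hydrogel libraries and 57267 to 68343 CPM in the other liquid libraries. In these bulk samples, fewer cells of a type and less RNA per cell cannot be told apart.

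In hydrogel, 10 of the 31 granule genes were called by edgeR (quasi-likelihood test, Benjamini-Hochberg adjusted p under 0.05), 3 of them higher and 7 lower. That is 32.3% of the members, close to the 29.3% of all tested genes that passed. By direction, 9.68% of the members were higher and 22.6% lower, against 15.1% and 14.1% of all tested genes. The falls were led by Slc18a2, the monoamine transporter that loads serotonin into dense granules, 3.17-fold lower, and Stx11, the syntaxin used for granule release, 2.08-fold lower. The rises were led by Vps18 and Vipas39, of endosomal tethering and alpha-granule sorting, at 1.72-fold and 1.38-fold. The remaining calls were Rab38, Dtnbp1, Vamp3, Vamp8 and Stxbp2, which fell, and Rab32, which rose. With library totals as the scaling the split was 5 higher and 6 lower, and with upper-quartile scaling 2 and 8, where Rab32 was not called. The split of all genes moved too, to 2280 higher and 1513 lower with library totals and 1755 and 2492 with upper-quartile scaling. With TMM it was 2096 and 1956.

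The median log2 change of the 31 genes was −0.20, against −0.01 over all tested genes. Of the 31, 2 changed at least 2-fold and passed, where 9.97% of all tested genes did. The 4 hydrogel libraries lay wholly above the 4 liquid libraries for 5 genes and wholly below for 7, a share of 38.7% against 28.4% of all genes. The counts rested on which libraries entered: without liquid 2, 6 rose and 14 fell, and without both hydrogel 1 and liquid 2, 7 rose and 15 fell. Calls over all genes were also more numerous there, at 2529 higher and 2446 lower without liquid 2 and at 2995 and 2638 without both, against 2096 and 1956 with all libraries. Leaving out both, which lay nearest the other culture on the marker sums, widens the difference by construction. A macrophage score of each library was made from its levels of the 20 macrophage markers. With this score added to the model, 0 rose and 2 fell, Slc18a2 and Rab38, and the median was −0.019. Calls over all genes also dropped there, to 384 higher and 349 lower. The score shares 78.7% of its variance with culture.

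**Figure D1:**
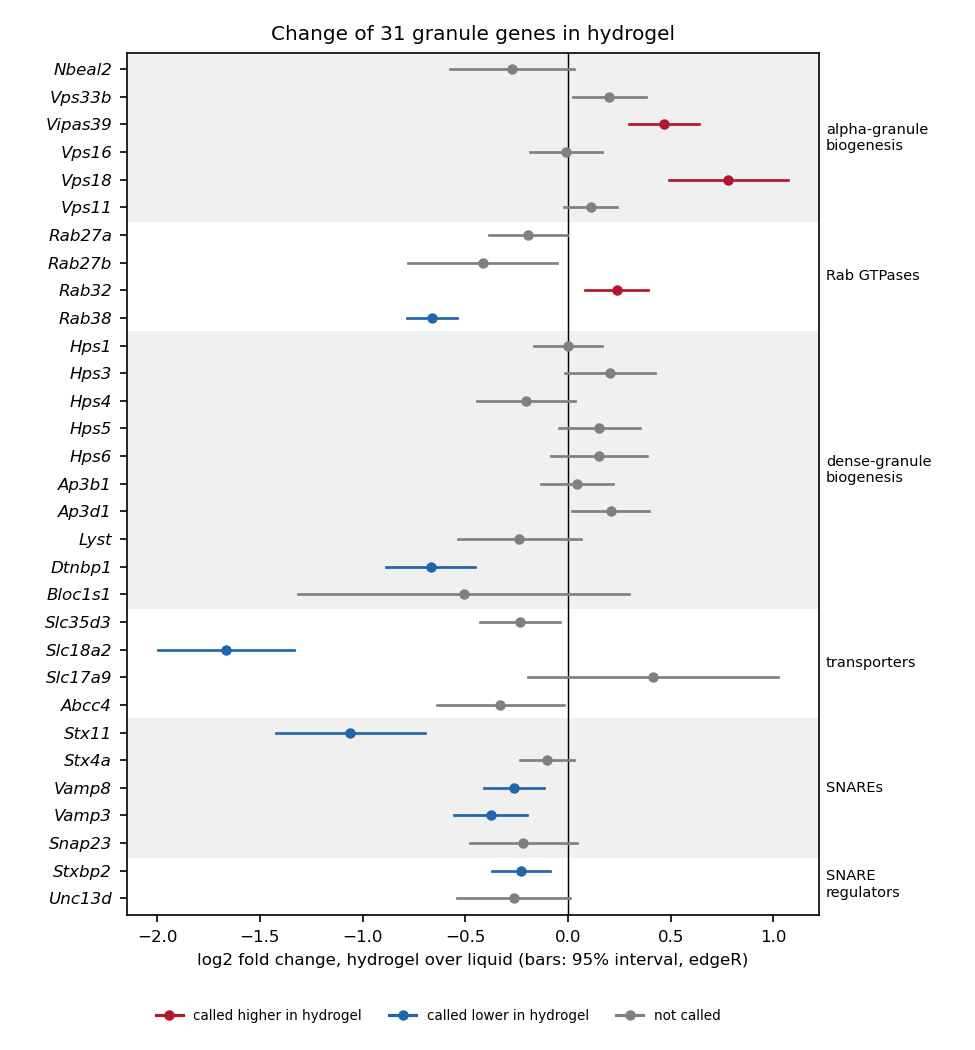
Log2 fold change of the 31 granule genes, hydrogel over liquid, with 95% intervals from edgeR, grouped by role; red marks genes called higher, blue genes called lower and grey genes not called. Slc18a2 at −1.67 and Stx11 at −1.06 lie farthest to the left and Vps18 at 0.78 farthest to the right.

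The starts of the genes with the widest changes are shown to place them in the genome. RefSeq promoter windows on GRCm38.p6, another build than the GRCm39 of the counts, were available for 24 of the members. The 250 bases before the start of Slc18a2 lie at chr19:59260628-59260877 (plus strand), those of Stx11 at chr10:12964260-12964509 (minus strand) and those of Vps18 at chr2:119288492-119288741 (plus strand). Both strands were searched for the letters AGATAA known from GATA factors, CCGGAAG known from ETS factors, TGAGTCA known from NF-E2 and AP-1, TGTGGT known from RUNX factors, and CACGTG, an E-box that reads alike on both strands. Capitals mark the matches.
Slc18a2: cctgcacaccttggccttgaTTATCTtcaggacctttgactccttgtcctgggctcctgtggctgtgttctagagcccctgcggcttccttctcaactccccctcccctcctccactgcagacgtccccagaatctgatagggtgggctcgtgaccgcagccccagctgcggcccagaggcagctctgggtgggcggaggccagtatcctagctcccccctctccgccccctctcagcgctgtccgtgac
Stx11: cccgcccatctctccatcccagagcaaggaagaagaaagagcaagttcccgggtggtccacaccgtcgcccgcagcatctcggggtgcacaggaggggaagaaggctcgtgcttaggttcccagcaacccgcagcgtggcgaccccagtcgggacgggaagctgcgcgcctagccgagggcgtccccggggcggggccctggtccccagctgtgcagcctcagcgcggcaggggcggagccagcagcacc
Vps18: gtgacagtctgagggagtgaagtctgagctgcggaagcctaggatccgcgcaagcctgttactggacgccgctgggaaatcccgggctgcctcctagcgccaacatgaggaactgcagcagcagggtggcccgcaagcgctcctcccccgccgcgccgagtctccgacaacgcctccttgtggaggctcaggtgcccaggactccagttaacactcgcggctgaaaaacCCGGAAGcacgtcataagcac

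The Slc18a2 window held the GATA letters on the minus strand 230 bases before the start, the Vps18 window held the ETS letters 21 bases before it, and the Stx11 window held none of the 5 motifs. Bases just past the window matched a GENCODE M21 transcript of the gene for Stx11 and Vps18 but not for Slc18a2. The start used for Slc18a2 is therefore less certain. Over all 32851 windows of the same length, 9.99% held the GATA letters, 6.91% the ETS letters, 4.46% TGAGTCA, 14% TGTGGT and 6.02% CACGTG. Among the 28 windows of members, 2 held the GATA letters, 2 the ETS letters, 0 TGAGTCA, 5 TGTGGT and 7 CACGTG. The E-box windows belonged to Vps16, Hps3, Hps5, Stxbp2, Rab27a, Bloc1s1 and Abcc4, of which Stxbp2 alone was called. A match describes letters only.

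Levels were compared between members per length, as CPM per kb of merged exons. Rab27b, the Rab27 form most abundant in platelets, stood at 111 ± 16.8 CPM per kb in hydrogel and 147 ± 29.3 in liquid, and Stx11 at 73.6 ± 12.8 in hydrogel and 153 ± 30.0 in liquid (SD, n = 4 each). In liquid these 2 had the highest means, which lay closer together than their SDs, and in hydrogel Rab27b alone had the highest mean. Slc35d3, a dense-granule protein whose loss in mice gives dense-granule deficiency, followed in hydrogel with 75.5 ± 4.58 CPM per kb, against 88.7 ± 9.71 in liquid. The BLOC-2 genes Hps3, Hps5 and Hps6 had means of 2.71 to 6.15 CPM per kb over both groups. At the bottom lay Slc17a9, the vesicular nucleotide transporter that loads ATP and ADP, with 0.816 ± 0.0115 CPM per kb in hydrogel and 0.615 ± 0.276 in liquid, and Bloc1s1 with 1.18 ± 0.432 and 1.66 ± 0.592. Bloc1s1 shares 720 of its 1288 exon bases with Rdh5 on the same strand in the annotation used, so reads there could be lost or split, and its level and change are uncertain.

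**Figure D2:**
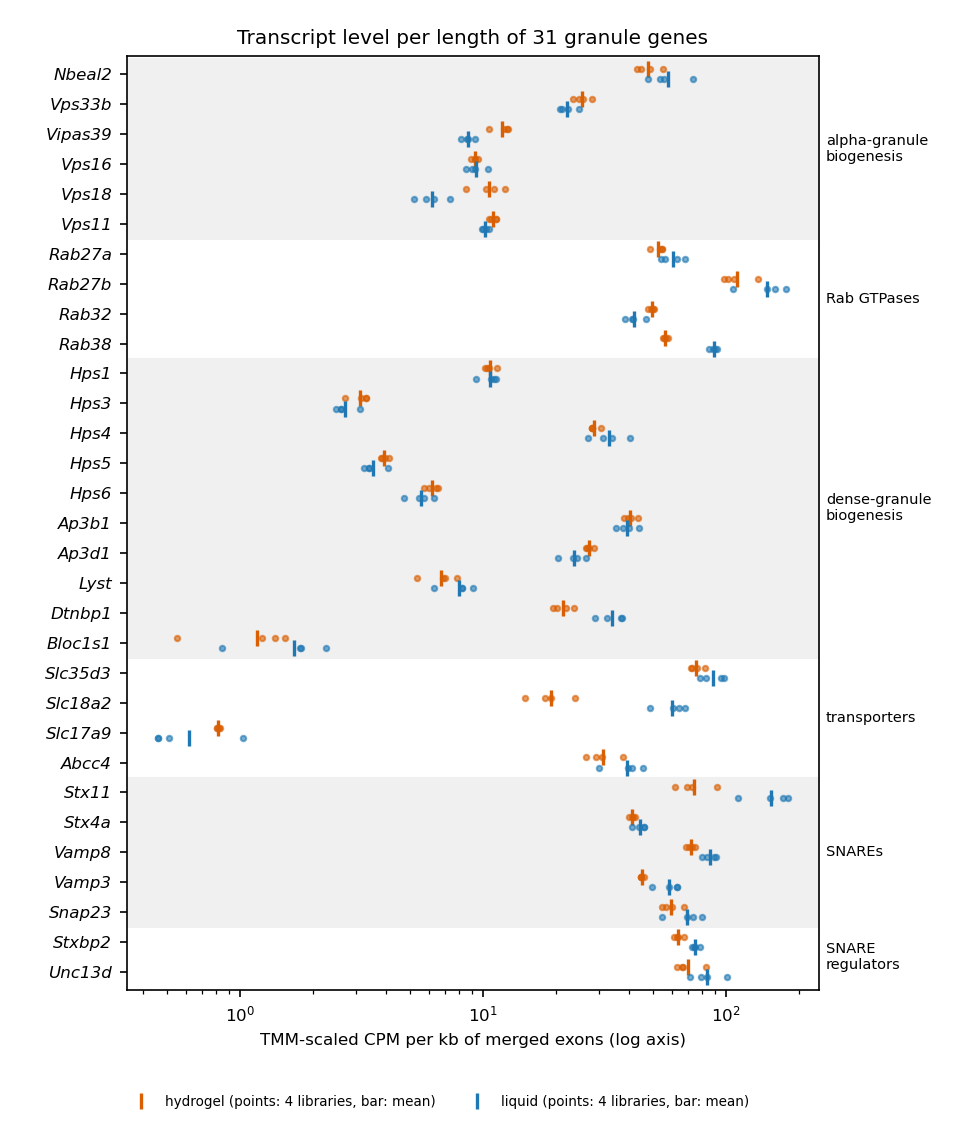
TMM-scaled CPM per kb of merged exons (log axis) of the 31 granule genes in 4 hydrogel libraries (orange) and 4 liquid libraries (blue); points are libraries and bars are means. Stx11 and Slc18a2 show the widest separation of the groups, while Slc17a9 and Bloc1s1 lie lowest.

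Among the genes of alpha-granule biogenesis, 2 of 6 rose and 0 fell, where 15.1% of all tested genes rose and 14.1% fell. Vps18, a core subunit shared by the HOPS and CORVET tethering complexes that bring endosomes and lysosomes together, had 40.9, 53.2, 59.1 and 49.2 CPM in hydrogel 1 to 4, against 30.2, 34.9, 28.0 and 24.9 CPM in liquid 1 to 4. The groups did not overlap, and the libraries nearest each other were hydrogel 1 and liquid 2. The log2 change was 0.78 ± 0.13 (SE; edgeR adjusted p = 0.00197). Vipas39, which pairs with VPS33B in sorting cargo to alpha granules, had 41.7, 49.2, 49.6 and 48.0 CPM in hydrogel 1 to 4, against 31.97, 34.1, 33.9 and 36.3 CPM in liquid 1 to 4. Every hydrogel library again lay above every liquid one, with a log2 change of 0.47 ± 0.08 (SE; edgeR adjusted p = 0.00189). Both kept their call when any 1 library was left out. Once the macrophage score was in the model their log2 changes were 0.28 (adjusted p = 0.516) and 0.25 (adjusted p = 0.424), and neither was called.

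The partner of Vipas39, Vps33b, a Sec1-like protein, averaged 88.9 ± 6.95 CPM in hydrogel and 77.3 ± 6.33 CPM in liquid (SD, n = 4 each). Its log2 change of 0.20 did not pass (95% interval 0.02 to 0.38, edgeR adjusted p = 0.0828), though it did with library totals as the scaling and without liquid 3. Nbeal2, whose loss gives the gray platelet syndrome, had 525, 426, 463 and 411 CPM in hydrogel 1 to 4, against 457, 513, 702 and 531 CPM in liquid 1 to 4. The groups overlapped, since hydrogel 1 lay above liquid 1 and liquid 2, and the log2 change of −0.27 did not pass (95% interval −0.57 to 0.03; edgeR adjusted p = 0.161). Leaving out both hydrogel 1 and liquid 2, which widens differences by construction, gave −0.36 with an edgeR adjusted p of 0.0345. With the macrophage score in the model the log2 change of Nbeal2 turned to 0.052 (adjusted p = 0.931). The other HOPS and CORVET core genes among the members, Vps11 and Vps16, had log2 changes of 0.11 (95% interval −0.02 to 0.24) and −0.01 (−0.18 to 0.16).

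The 4 Rab GTPases differed in direction within a pair of close relatives. RAB32 and RAB38 are both activated by BLOC-3 and carry cargo to melanosomes and dense granules. Rab38 had 89.0, 87.4, 87.2 and 90.8 CPM in hydrogel 1 to 4, against 145, 134, 139 and 142 CPM in liquid 1 to 4. The hydrogel libraries were tightly grouped and lay below every liquid library, hydrogel 1 and liquid 2 included, and the log2 change was −0.66 ± 0.05 (SE; edgeR adjusted p = 0.000121), 1.58-fold lower. Rab32 had 115, 112, 117 and 118 CPM in hydrogel 1 to 4, against 97.3, 89.98, 95.8 and 109 CPM in liquid 1 to 4. It lay above in every hydrogel library, by a log2 change of 0.24 ± 0.07 (SE; edgeR adjusted p = 0.0267). That call did not survive 5 single omissions (edgeR adjusted p of up to 0.0730). These were the omissions of hydrogel 2, hydrogel 3, hydrogel 4, liquid 1 and liquid 3. The Rab32 call was also lost with upper-quartile scaling, with no filter on low counts (0.0717) and with the macrophage score in the model (0.261). The call of Rab38 held in all 8 single omissions, once the macrophage score was in the model and under every scaling tried.

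Within each library the ratio of Rab32 to Rab38 counts, which does not depend on scaling between libraries, was 1.29, 1.28, 1.34 and 1.303 in hydrogel 1 to 4, against 0.670, 0.672, 0.690 and 0.767 in liquid 1 to 4. The 4 hydrogel ratios all lay above the 4 liquid ones. Per length, Rab38 stood above Rab32 in both cultures, with 56.2 against 49.4 CPM per kb in hydrogel and 88.9 against 41.9 CPM per kb in liquid, so the balance shifted toward Rab32 without reversing. The log2 ratio differed by 0.90 between the group means, with an exact two-sided permutation p of 0.0286, the smallest that 4 against 4 libraries allow. Adjusted over the 5 ratios tested the p was 0.0714 and did not pass. Even fully separated groups could pass only if more of the 5 ratios had reached the smallest p. The correction therefore does not decide on this ratio.

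Rab27a and Rab27b, which tether granules for secretion through their effectors, did not pass. Rab27b had 1440, 1043, 1156 and 1083 CPM in hydrogel 1 to 4, against 1572, 1144, 1877 and 1703 CPM in liquid 1 to 4. The groups overlapped, with hydrogel 1 above liquid 2, and the log2 change was −0.41 (95% interval −0.78 to −0.05; edgeR adjusted p = 0.0815). Without liquid 2 it was −0.54, adjusted p = 0.00754, and it was also called without hydrogel 1 and by DESeq2. Once the macrophage score was in the model the log2 change turned to 0.38 and was not called (adjusted p = 0.262). Rab27a averaged 205 ± 10.99 CPM in hydrogel and 234 ± 24.7 CPM in liquid (SD, n = 4 each; edgeR adjusted p = 0.114), and its log2 ratio to Rab27b differed by 0.21 between the groups (exact permutation p = 0.200).

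Of the 10 genes of dense-granule biogenesis, 1 fell and 0 rose, against 14.1% and 15.1% of all tested genes. Dtnbp1 encodes dysbindin, a subunit of BLOC-1, which sorts cargo from endosomes toward lysosome-related organelles. It had 72.4, 75.5, 88.5 and 81.8 CPM in hydrogel 1 to 4, against 121, 108, 139 and 138 CPM in liquid 1 to 4. The hydrogel libraries lay below all liquid libraries, with a log2 change of −0.67 ± 0.10 (SE; edgeR adjusted p = 0.00107), a call kept in all 8 single omissions. Once the macrophage score was in the model it was −0.56 and not called (adjusted p = 0.138).

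The other 9 had log2 changes from −0.51 for Bloc1s1 to 0.21 for Ap3d1. The BLOC-3 genes Hps1 and Hps4, whose products activate RAB32 and RAB38, stood at 0.00 (95% interval −0.16 to 0.17) and −0.20 (−0.44 to 0.04). The BLOC-2 genes Hps3, Hps5 and Hps6 had 0.20, 0.15 and 0.15. Of the AP-3 subunits, Ap3d1 lay above in all 4 hydrogel libraries, with 244 ± 8.40 CPM in hydrogel and 211 ± 23.3 CPM in liquid (SD, n = 4 each), but did not pass (edgeR adjusted p = 0.0912). It passed without liquid 3 (adjusted p = 0.0375) and with library totals as the scaling. Ap3b1 had a log2 change of 0.04 (95% interval −0.13 to 0.22). Lyst, mutated in the Chediak-Higashi syndrome, averaged 118 ± 17.97 CPM in hydrogel and 139 ± 20.9 CPM in liquid (SD, n = 4 each; edgeR adjusted p = 0.212). With the replicate number as a block its log2 change of −0.24 was called (edgeR adjusted p = 0.0164). The log2 ratio of the BEACH genes Nbeal2 and Lyst within a library differed by −0.02 between the cultures (exact permutation p = 0.886).

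Of the 4 granule transporters, 1 fell, Slc18a2, and 0 rose, where 14.1% of all tested genes fell and 15.1% rose. The other 3 were not called. Slc18a2 had 125, 78.01, 99.7 and 94.0 CPM in hydrogel 1 to 4, against 317, 255, 353 and 333 CPM in liquid 1 to 4. The highest hydrogel library, hydrogel 1, had less than the lowest liquid library, liquid 2, and the log2 change was −1.67 ± 0.15 (SE; edgeR adjusted p = 0.000162). The call held under every alternative tried, with a log2 change of −1.80 to −1.56 over the single omissions and of −1.003 once the macrophage score was in the model (adjusted p = 0.00770).

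Mast cells and basophils also express Slc18a2, and 7 of the 9 tested markers of these cells fell and 0 rose, out of 11 listed and none at 0 over all libraries. Over all tested genes, 14.1% fell and 15.1% rose. The summed markers ranged from 78.5 to 196 CPM in hydrogel and from 140 to 601 CPM in liquid, with the lowest sum in hydrogel 1 and the highest in liquid 2. Their part in the fall of Slc18a2 was not tested.

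Slc35d3 had a log2 change of −0.23 (95% interval −0.43 to −0.04; edgeR adjusted p = 0.0720) and passed with upper-quartile scaling and without liquid 1 or liquid 2. Abcc4, an exporter of cyclic nucleotides that platelets carry in dense granules, averaged 198 ± 29.8 CPM in hydrogel and 249.2 ± 41.8 CPM in liquid (SD, n = 4 each), a log2 change of −0.33 that did not pass (edgeR adjusted p = 0.101) but did without hydrogel 1 or without liquid 2. Abcc4 was also called with the replicate number as a block (−0.32, edgeR adjusted p = 0.0289). With the macrophage score in the model its log2 change turned to 0.40 and was not called (adjusted p = 0.143). Slc17a9 had 2.58, 2.66, 2.63 and 2.59 CPM in hydrogel 1 to 4, against 1.48, 3.29, 1.63 and 1.48 CPM in liquid 1 to 4. Liquid 2 alone lay above the hydrogel libraries, and the log2 change of 0.41 (95% interval −0.19 to 1.02) became 0.77, adjusted p = 0.00966, without it. Adding the macrophage score to the model turned it to −0.52 (adjusted p = 0.562).

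**Figure D3:**
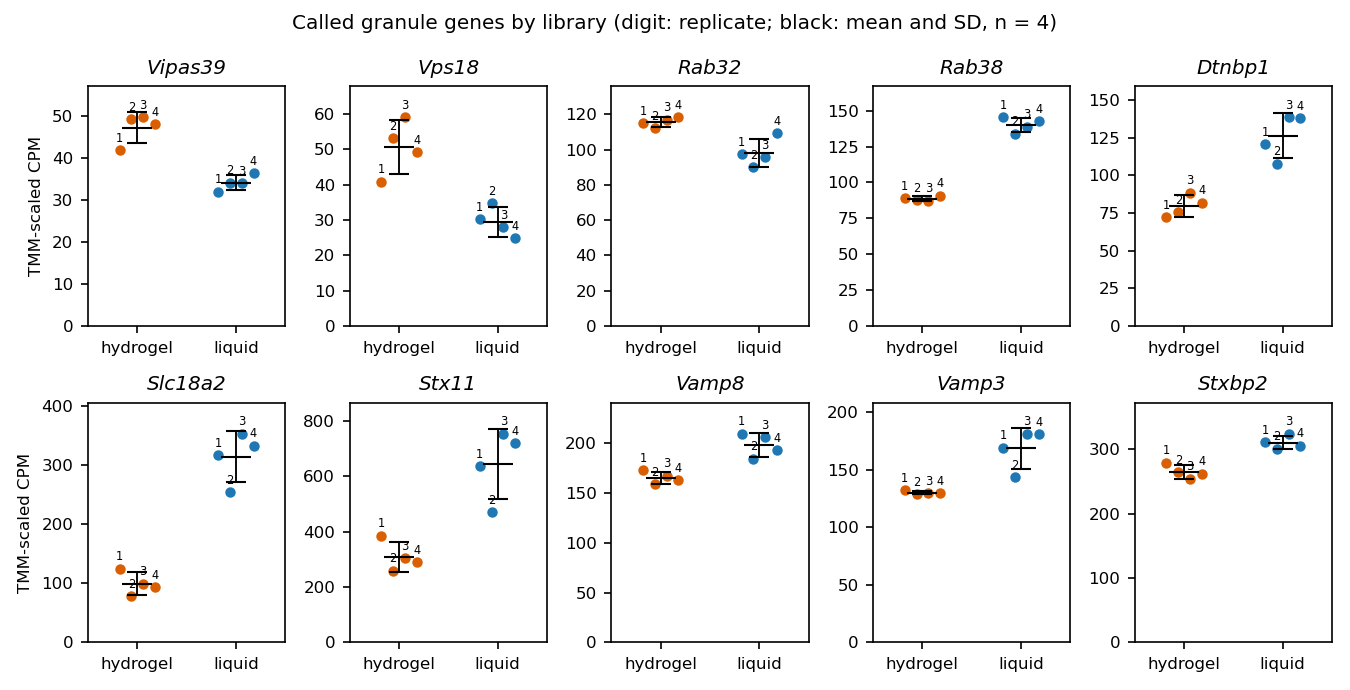
TMM-scaled CPM of the 10 called granule genes in each library, hydrogel on the left and liquid on the right of each panel; digits are replicate numbers and black marks the mean and SD of 4 libraries. The groups do not overlap in any of the 10 panels, and hydrogel 1 and liquid 2 are the libraries nearest the other group for Slc18a2 and Stx11.

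Among the SNAREs, 3 of the 5 measured fell and 0 rose, where 14.1% of all tested genes fell and 15.1% rose. Stx11, the target-membrane syntaxin whose loss impairs platelet granule release, had 385, 259, 304 and 290 CPM in hydrogel 1 to 4, against 636, 471, 754 and 721 CPM in liquid 1 to 4. No hydrogel library reached a liquid one, and the log2 change was −1.06 ± 0.16 (SE; edgeR adjusted p = 0.00135). The call held in all 8 single omissions (−1.18 to −0.98). Once the macrophage score was in the model the log2 change was −0.27 and was not called (adjusted p = 0.478).

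Stx4a, a second plasma-membrane syntaxin, had a log2 change of −0.10 (95% interval −0.24 to 0.03). The ratio of Stx11 to Stx4a counts within a library was 3.93, 2.74, 3.06 and 2.98 in hydrogel 1 to 4, against 5.85, 4.53, 6.91 and 7.46 in liquid 1 to 4. The groups did not overlap, the log2 ratio differing by −0.95 (exact permutation p = 0.0286, and 0.0714 adjusted over the 5 ratios, which does not pass). As for Rab32 and Rab38, the unadjusted p was the smallest possible, so the correction does not decide on this ratio.

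Vamp8, the principal granule-side SNARE of platelets, had 173, 158, 167 and 163 CPM in hydrogel 1 to 4, against 209, 184, 206 and 193 CPM in liquid 1 to 4. Vamp3, which can partly stand in for VAMP8 in release, had 132, 129, 130 and 130 CPM in hydrogel 1 to 4, against 169, 143, 181 and 181 CPM in liquid 1 to 4. Both lay lower in every hydrogel library. Vamp8 fell by 0.26 ± 0.07 (SE; edgeR adjusted p = 0.0138), which was lost without hydrogel 2 (adjusted p = 0.0553), and Vamp3 by 0.38 ± 0.08 (SE; edgeR adjusted p = 0.00654) on the log2 scale. With the macrophage score in the model their log2 changes were −0.045 and −0.098, and neither was called (edgeR adjusted p = 0.885 and 0.768). Their log2 ratio differed by 0.11 between the groups (exact permutation p = 0.171). Snap23, the SNAP protein of platelets, averaged 255 ± 24.0 CPM in hydrogel and 297 ± 46.1 CPM in liquid (SD, n = 4 each) and did not pass (edgeR adjusted p = 0.194).

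Of the regulators, Stxbp2, the Sec1-like chaperone of syntaxin 11, had 279, 264, 254 and 262 CPM in hydrogel 1 to 4, against 311, 301, 324 and 306 CPM in liquid 1 to 4. The groups were separate, and the fall was small, 0.23 ± 0.06 (SE) on the log2 scale (edgeR adjusted p = 0.0212). It was lost without hydrogel 2, hydrogel 3 or hydrogel 4 (edgeR adjusted p of up to 0.0775). It was also lost with library totals as the scaling (0.0559) and with no filter on low counts (0.0728). With the macrophage score in the model the log2 change of Stxbp2 was −0.091 and was not called (edgeR adjusted p = 0.733). Unc13d, which primes granules for fusion, averaged 326 ± 40.8 CPM in hydrogel and 391 ± 60.1 CPM in liquid (SD, n = 4 each), a log2 change of −0.27 that did not pass (edgeR adjusted p = 0.132) but did without hydrogel 1 or without liquid 2. It turned to 0.29 with the macrophage score in the model, also not called (adjusted p = 0.329).

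Since the megakaryocyte markers as a list were lower in hydrogel, each member was also expressed per 1000 counts of the 16 megakaryocyte markers of its own library, a description with no test that was chosen after seeing the data. Slc18a2 then stood at 2.42, 2.23, 2.63 and 2.62 in hydrogel 1 to 4, against 5.22, 6.42, 5.17 and 5.82 in liquid 1 to 4. Stx11 stood at 7.45, 7.40, 8.04 and 8.09 in hydrogel 1 to 4, against 10.5, 11.9, 11.03 and 12.6 in liquid 1 to 4. These 2 of the 31 members lay wholly below in hydrogel and 0 wholly above, where 2.54% of all tested genes lay below and 11.3% above. On this scale hydrogel 1 was not the highest hydrogel library, nor liquid 2 the lowest liquid library, for either gene. The marker sum weighs the most abundant markers most, such as Thbs1, Ppbp and Itgb3 with means of 7946, 7406 and 6468 CPM in hydrogel. Of these, Thbs1 and Ppbp were not called and Itgb3 was called lower. Clec1b, 2.23-fold lower at 299 CPM in hydrogel, weighs little, so the scale depends on this weighting.

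The other 29 overlapped between the cultures. The change of scale raised the log2 difference of every member by nearly the same amount, 0.48 to 0.57 with a median of 0.49, because the marker sum itself was lower in hydrogel. The log2 difference of Slc18a2 was thus −1.19 on this scale and that of Stx11 −0.57, both smaller than in CPM. A fall in CPM that is smaller than this common rise turns by construction, as for Vamp8 (0.22), Vamp3 (0.12) and Stxbp2 (0.26). Rab38 and Dtnbp1, whose falls in CPM were larger than it, stood at −0.18 each. Vps18 and Vipas39 averaged 1.31 ± 0.356 and 1.22 ± 0.275 per 1000 marker counts in hydrogel and 0.555 ± 0.219 and 0.629 ± 0.164 in liquid (SD, n = 4 each), overlapping only through hydrogel 1 and liquid 2.

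**Figure D4:**
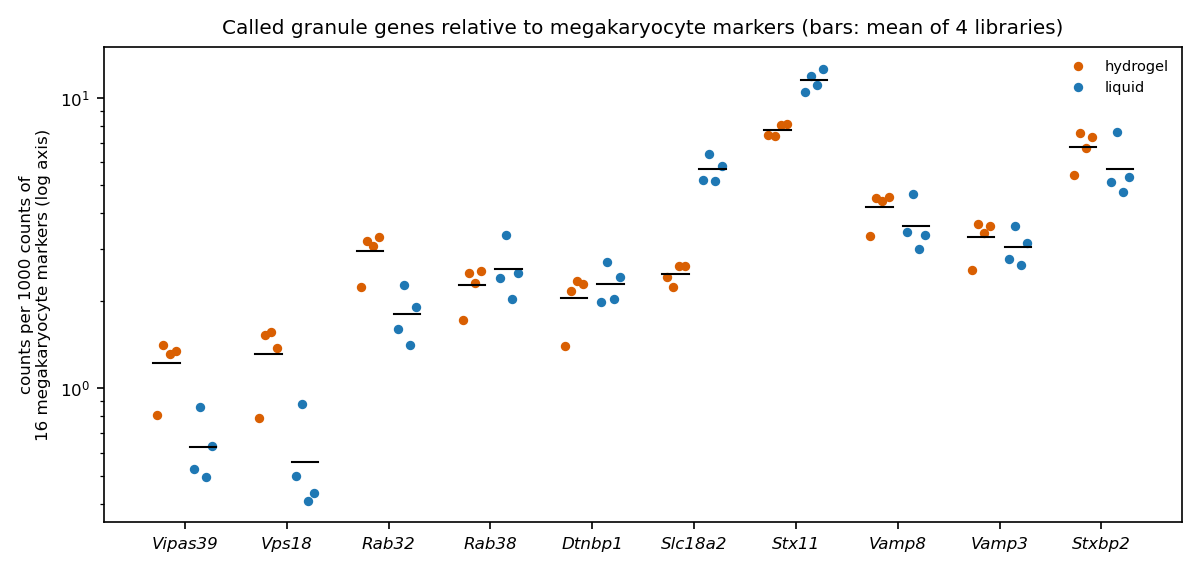
Counts of the 10 called granule genes per 1000 counts of the 16 megakaryocyte markers in the same library (log axis), for 4 hydrogel libraries (orange, left) and 4 liquid libraries (blue, right); bars are means. Slc18a2 and Stx11 do not overlap between the cultures, and the other 8 genes do.

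Other genes of the same complexes and fusion steps were described from a list of 54, of which 53 were in the table and 50 tested. Of these, 9 rose and 8 fell, 34.0% of those tested against 29.3% of all genes, with a median log2 change of 0.04. The split was 4 higher and 9 lower under upper-quartile scaling, and 11 and 7 under library totals. All genes split 1755 higher and 2492 lower under upper-quartile scaling, and 2280 and 1513 under library totals. The number of partners that rose was 3 without hydrogel 2, hydrogel 3 or liquid 1, and 5 without hydrogel 4 or liquid 4. Over all genes, 1476 to 1694 rose in these omissions, against 2096 with all libraries. Once the macrophage score was in the model 2 partners rose and 0 fell, where 384 of all genes rose and 349 fell.

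Of the regulators of fusion, 5 of 13 fell and 1 rose, against 14.1% and 15.1% of all tested genes. Sytl4 encodes granuphilin, an effector that binds Rab27 on secretory granules. It had 181, 114, 123 and 126 CPM in hydrogel 1 to 4, against 348, 228, 394 and 334 CPM in liquid 1 to 4, and no hydrogel library reached a liquid one. Its log2 change was −1.26 ± 0.19 (SE; edgeR adjusted p = 0.00114), 2.39-fold lower. Stxbp3, a Sec1-like syntaxin partner, fell 1.49-fold, and Unc13b, a priming factor related to Unc13d, 1.94-fold (edgeR adjusted p = 0.00165 and 0.00419). These 3 genes kept their call in all 8 single omissions, and none was called once the macrophage score was in the model.

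Nsf, the ATPase that takes SNARE complexes apart after fusion so they can be used again, rose. It had 424, 383, 375 and 324 CPM in hydrogel 1 to 4, against 255, 210, 283 and 236 CPM in liquid 1 to 4. The groups did not overlap, the log2 change was 0.61 ± 0.11 (SE; edgeR adjusted p = 0.00274), and the call held under every alternative, with 1.09 under the macrophage covariate (adjusted p = 0.00229). Its adaptor gene Napa, encoding alpha-SNAP and named after its values were seen, had a log2 change of 0.14 that did not pass (edgeR adjusted p = 0.0877).

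Of the other SNAREs, 3 of 16 rose and 2 fell, against 15.1% and 14.1% of all tested genes. Vamp4, of the trans-Golgi and endosomes, rose 2.33-fold to 18.1 ± 4.19 CPM in hydrogel, against 7.79 ± 1.62 CPM in liquid, and Vamp2, which acts in regulated secretion, fell 1.59-fold to 32.1 ± 2.601 CPM in hydrogel, against 51.0 ± 4.90 CPM in liquid (SD, n = 4 each; edgeR adjusted p = 0.00169 and 0.000765). Once the macrophage score was in the model their log2 changes were 0.29 and −0.67. Neither was called there (edgeR adjusted p = 0.604 and 0.0539). Stx2 fell by 0.44 and Stx3 rose by 1.33 on the log2 scale, with groups that overlapped, and Stx3 was no longer called in 4 of the 8 single omissions, those of hydrogel 2, hydrogel 3, liquid 1 and liquid 4 (adjusted p of up to 0.0684). Stx6, named after its values were seen, rose 1.18-fold, a call lost without hydrogel 2, hydrogel 3, hydrogel 4, liquid 1, liquid 2 or liquid 4. Sytl2, named in the same way, fell 1.81-fold among the fusion regulators, to 1.14 ± 0.397 CPM in hydrogel, against 2.09 ± 0.289 CPM in liquid, and it was called in 1 of the 8 single omissions, that of hydrogel 1. Stx2, Stx3, Stx6 and Sytl2 were also not called with the macrophage score in the model.

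The tethering partners of Vps18 moved upward where they were called, with 3 of 5 higher and 0 lower. Over all tested genes, 15.1% were higher and 14.1% lower. Vps8, specific to CORVET, rose by a log2 change of 0.35 ± 0.06 (SE; edgeR adjusted p = 0.00186), to 55.8 ± 1.48 CPM in hydrogel, against 43.8 ± 1.41 CPM in liquid (SD, n = 4 each). Vps39, of HOPS, and Vps33a, of the core shared by HOPS and CORVET, rose 1.18-fold and 1.155-fold. Both were named after their values were seen. Upper-quartile scaling ended both calls, as did leaving out hydrogel 2, hydrogel 3, hydrogel 4, liquid 1, liquid 3 or liquid 4, and for Vps33a also liquid 2. None of Vps8, Vps39 and Vps33a was called with the macrophage score in the model, where their log2 changes were 0.38, −0.011 and 0.11. In the fit without that score, Vps41 and Tgfbrap1 stood at log2 changes of 0.15 and 0.22, neither of them called. Of the 10 BLOC-1 and AP-3 partners, Ap3m1, also named afterwards, rose 1.23-fold, and of the 6 other BEACH genes Wdfy4 rose 1.21-fold and Lrba fell 1.295-fold. Each of these 3 was no longer called without hydrogel 2 or hydrogel 3, nor Ap3m1 without hydrogel 4, liquid 1 or liquid 3, Wdfy4 without liquid 1, liquid 3 or liquid 4, and Lrba without hydrogel 4 or liquid 4. With the macrophage score in the model none of these 3 was called.

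**Figure D5:**
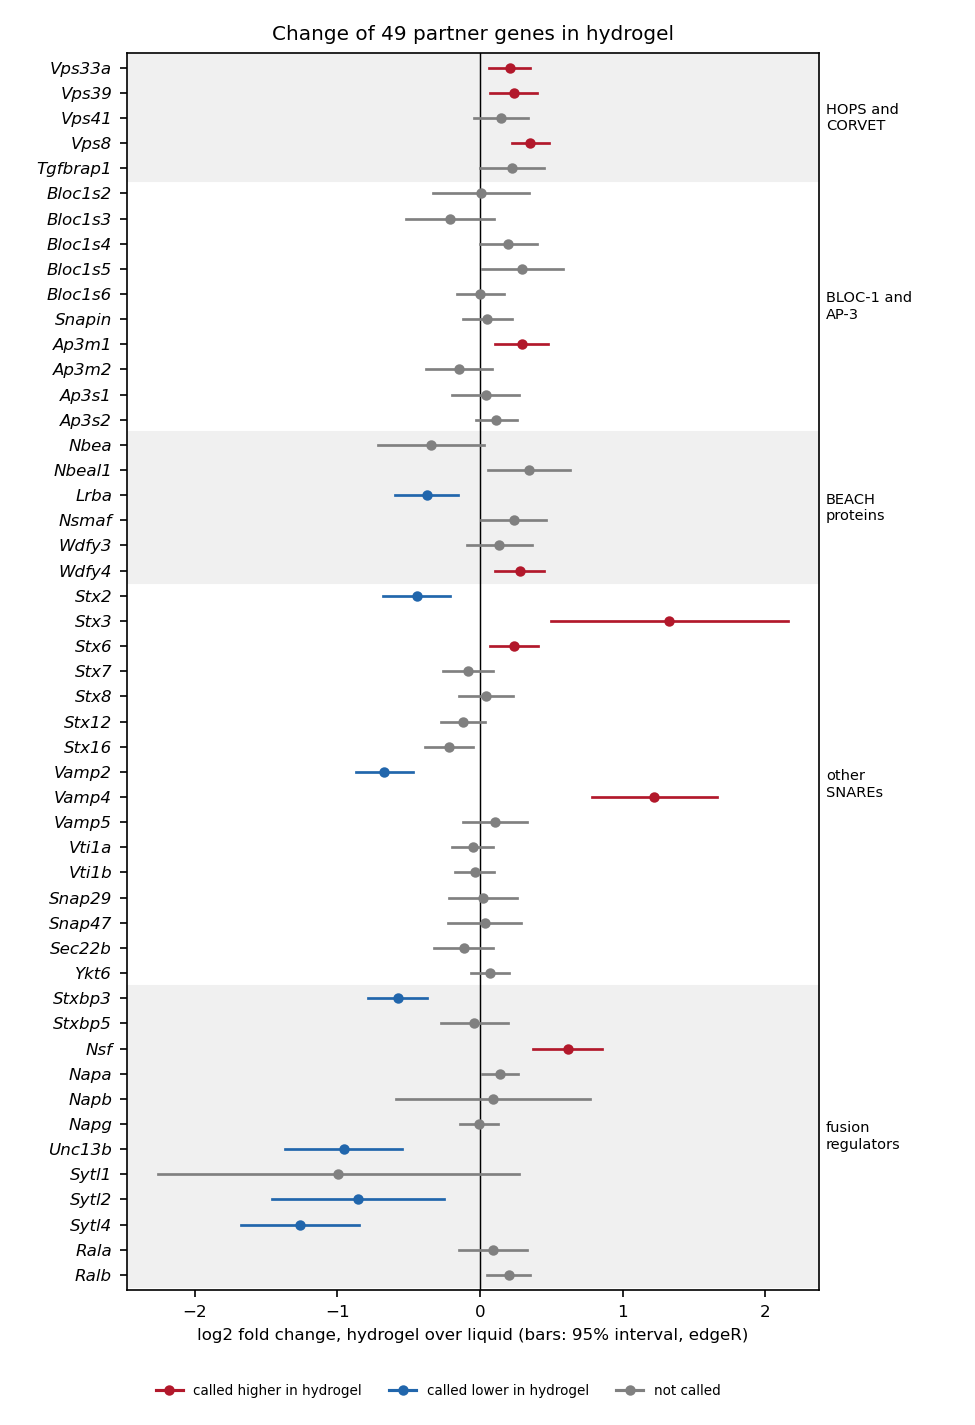
Log2 fold change of 49 of the 50 tested partner genes, hydrogel over liquid, with 95% intervals from edgeR, grouped by complex; red marks genes called higher, blue genes called lower and grey genes not called. Sytl4 at −1.26 and Nsf at 0.61 lie on opposite sides among the fusion regulators. All 5 HOPS and CORVET genes lie to the right of 0, 3 of them called in this fit without the macrophage score.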

How the data were processed

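The authors deposited raw counts, whole numbers for each gene that were not normalized, made from stranded polyA libraries of 150 ng RNA per the labels' protocols. The submitters' processing notes name HTSeq 0.13.5, STAR 2.7.10b, bcl2fastq and the build GRCm39. The gene annotation and the strand setting were not named there. Of 27679 identifiers, 26534 had a symbol in GENCODE M21, another build, which also gave exon lengths; 2 text lines naming no gene were left out and 0 sample columns were unused.

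Genes kept by filterByExpr were scaled by TMM and tested with edgeR 4.0.16 (R 4.3.3; quasi-likelihood, culture as the only term, Benjamini-Hochberg over 13845 genes, threshold 0.05); the SE is the log2 change over the square root of F. Ratios within a library added 0.5 to each count. Alternatives were other scalings and filters, DESeq2 1.42.0, limma-voom 3.58.1, a replicate block, a threshold of 0.01, the macrophage covariate and omitted libraries. The fit was tested on simulated data. Members and lists were chosen with earlier results of these data known. All members are accounted for, and of the partners up to 12 called genes with the smallest adjusted p and at least 2 CPM in the higher group are named, plus those said to be named afterwards. Vamp7, and so 1 planned ratio, was not analysed here, and 1 called partner gene is counted but not reported here by name.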

Additional observations from a re-analysis of the deposited data

Results flagged for a closer look

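Over the 31 members, 62 groups of 4 libraries were checked for a library far from the other 3, and chance flags about 1 in 20 groups. Hps4, of BLOC-3, stood at 120.5 CPM in hydrogel 1, where the other hydrogel libraries had 110.7 to 111.2 CPM. Slc17a9, the nucleotide transporter, stood at 3.29 CPM in liquid 2, where the other liquid libraries had 1.48 to 1.63 CPM.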

How the results depend on the processing

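Of the 10 called members, 7 kept their call in every single omission and 2, Slc18a2 and Rab38, under every alternative, and 0 changed sign; 14 members not called in the report passed under at least 1 alternative. The median log2 change of the members ran from −0.24 to −0.13 over single omissions and was −0.019 with the macrophage covariate. Over the single omissions, members called higher numbered 2 to 6 and lower 5 to 14, partners 3 to 11 and 6 to 10, and all genes 1476 to 2529 and 1224 to 2446; the highest counts of members came without liquid 2, and the lowest counts of all genes without hydrogel 2. Without both hydrogel 1 and liquid 2, which widens the difference by its construction, 7 members were higher and 15 lower. Library totals alone gave 5 members higher, and upper-quartile scaling 4 partners higher; all genes split 2096 higher and 1956 lower with TMM, 1755 and 2492 with upper-quartile scaling, and 2280 and 1513 with library totals. At an adjusted p of 0.01, fewer by construction, 3 partners were higher and 5 lower, and 1180 genes higher and 911 lower. With the macrophage covariate 0 members were higher and 2 lower, 2 partners higher and 0 lower, and 384 genes higher and 349 lower; the log2 changes of Vps39 (−0.011), Wdfy4 (−0.0054), Stx3 (−0.54), Lrba (0.033) and Stx2 (0.094) turned and were not called, and the cause was not tested. Of the 21 members not called, 11 also turned there, 0 of them called. Same-numbered libraries did not all deviate together, with r of −0.13 for number 3 and 0.10 to 0.33 for the others. Not every library correlated best with its own number. Whether the numbers mark pairs is therefore not settled, and they were not read as pairs. With the replicate number as a block, 3 members were higher and 9 lower. Lyst (−0.24, edgeR adjusted p = 0.0164) and Abcc4 (−0.32, 0.0289) were called in addition. The ratio to megakaryocyte markers was added after seeing the data. The genes at the lowest counts, Bloc1s1 and Slc17a9, had 22 to 132 counts per library, and intervals too wide to place their change.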
